A study of Mus musculus with 12 samples.

Results

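Wnt proteins are secreted signals that bind Frizzled receptors on the cell surface. In the canonical branch of the pathway, the Wnt also engages the co-receptor Lrp5 or Lrp6, and the receptor complex stops the breakdown of beta-catenin, which then enters the nucleus and acts with Tcf and Lef factors. In the developing forebrain, the cortical hem at the caudal and medial edge of the cortex is known as a source of Wnt ligands, and Frizzled receptors are what a progenitor needs to read them. The genes described here are 10 mouse receptor genes, Fzd1, Fzd2, Fzd3, Fzd5, Fzd7, Fzd8, Fzd9, Fzd10, Lrp5 and Lrp6. Their probes were found by gene symbol in the platform's annotation, and the list itself was drawn up with earlier results of these data known. Of the 10 genes, 9 had a probe, 1 each, among 21998 probes on the array, and no probe carried the symbol Fzd10. Over both strains 7 of them, among 14418 features, had enough values to be tested.

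The study compared the rostral with the caudal end of the neocortex in mouse embryos at E13.5 (embryonic day), when its progenitors are producing neurons, and each end was a cut piece, with the tissue between them not used here. Rostral and caudal RNA of 1 pool competed on arrays read in 2 dyes, Cy3 and Cy5, so each value is a log2 ratio and no level of a gene in either end is known. The outbred MF1 strain and the inbred C57 strain had 3 pools each, of 3 embryos per the labels, and the cDNA was amplified before labelling, per the design text. Each pool was measured on 2 arrays with the dyes exchanged, and the pool was the replicate. The design text has pools collected from single litters, so pools may share a litter, and p-values measure the spread between these pools alone. Because only ratios were used here, the identity of the tissue could not be checked against its markers.

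A positive ratio stands for more RNA at the rostral end. That direction is likely rather than known, because the dye used as numerator was inferred, as described with the processing. In bulk tissue, fewer cells that express a receptor and less receptor RNA in each cell cannot be told apart. The C57 arrays had more missing probes and more widely spread ratios. Per array, missing probes made up 7.73% ± 2.72 in MF1, against 14.6% ± 2.24 in C57 (SD over 6 arrays each). The robust SD of the log2 ratios averaged 0.49 on MF1 arrays and 0.74 on C57 arrays. No array held both strains, so a strain difference cannot be told apart from a difference between these sets of arrays.

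No Wnt receptor gene was shown to be graded along the rostrocaudal axis. With limma on pool means, 0 of the 7 receptor genes passed an adjusted p of 0.05, as did 0 of the 14418 features tested (0%). At an unadjusted p under 0.05 there were 0 of 7 receptor genes, against 8.98% of all features. Their mean ratios ran from -0.41 for Fzd7 to 0.17 for Fzd1, 3 above 0 and 4 below. The median of the 7 was -0.018, and that of all features was 0.0091. The median size of their ratios, regardless of sign, was 0.16 on the log2 scale, close to the 0.15 of all features. No receptor gene had the same sign in 6 of 6 pools, which 5.97% of the features with 6 pools did.

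**Figure D1:**
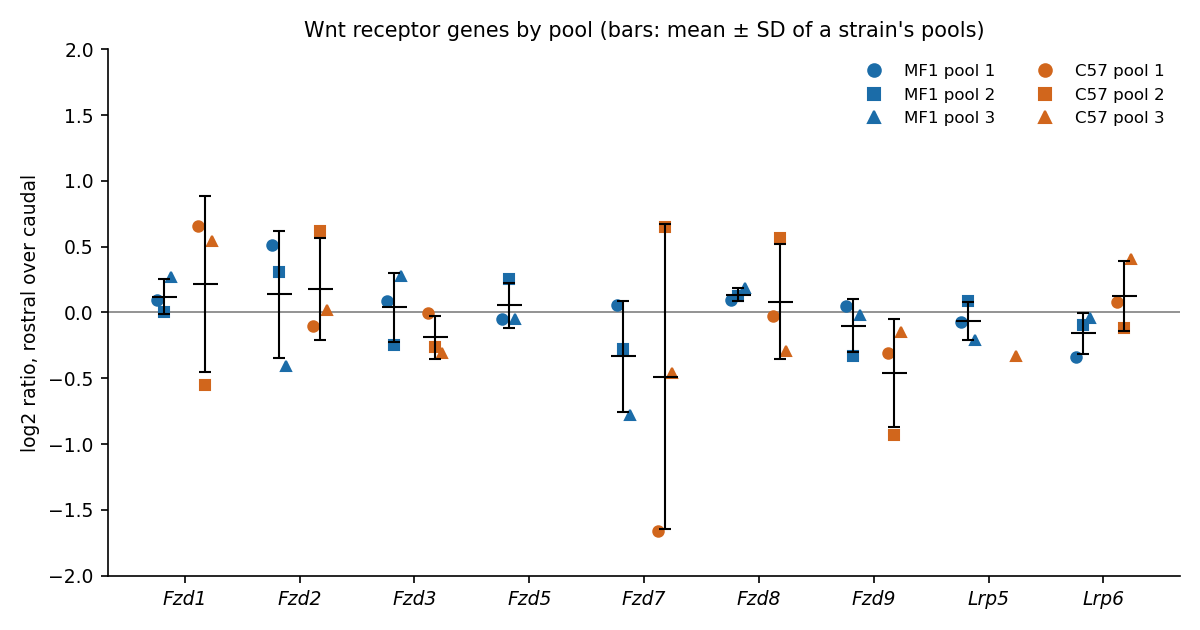
Log2 ratio of rostral over caudal RNA (vertical axis) for the 9 receptor genes with a probe, 1 point per pool; horizontal bars with whiskers give the mean ± SD of a strain's pools. MF1 points lie between -0.78 and 0.52 and C57 points between -1.66 and 0.66, and over the pools of both strains each gene has points on both sides of 0.

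The intervals limit how large the mean measured ratio could be. They do not limit a gradient in the tissue, because signal over background is unknown and the effect of amplification on the ratios was not tested. For 6 of the 7 genes the 95% confidence interval of the mean ratio lay within a 2-fold difference in either direction, as it did for 84.3% of all features. These intervals are not adjusted for the number of genes. The interval was narrowest for Lrp6, from -0.30 to 0.27, and for Fzd3, from -0.36 to 0.21. It was widest for Fzd7, from -1.10 to 0.28, so a caudal excess of Fzd7 of just over 2-fold lay within its interval.

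**Figure D2:**
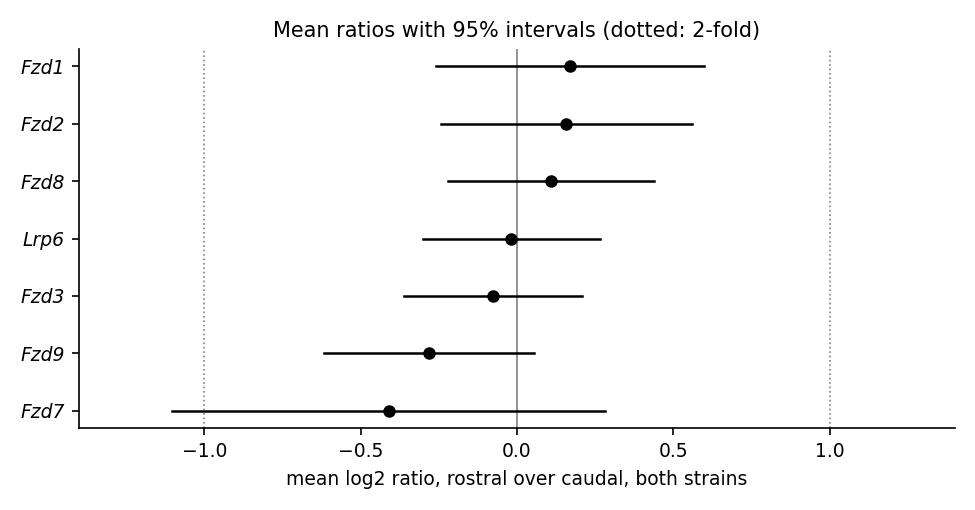
Mean log2 ratio of rostral over caudal RNA over both strains (points, horizontal axis) with 95% confidence intervals from limma (lines) for the 7 receptor genes tested, ordered by mean. Every interval crosses 0, and that of Fzd7 is the one that passes the dotted line of a 2-fold difference.

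Fzd1, Fzd2 and Fzd7 form 1 subgroup of closely related Frizzled receptors. Fzd7 is known for Wnt signalling in stem and progenitor cells. Its ratios were 0.058, -0.27 and -0.78 in MF1 pools 1 to 3 and -1.66, 0.65 and -0.46 in C57 pools 1 to 3. It was below 0 in 4 of 6 pools, with the lowest pool value of the 9 genes in C57 pool 1. The 0.65 of C57 pool 2 averages arrays on opposite sides of 0, at 1.85 and -0.54. Its mean was -0.41 ± 0.78 (SD, n = 6), with limma's unadjusted p of 0.202 and an adjusted p of 0.70. The mean rested on single pools: it was -0.12 without C57 pool 1, and -0.70 without C57 pool 2 (limma, unadjusted p = 0.023, adjusted p = 0.484). Among all features, 13.0% had a larger mean ratio in size than Fzd7.

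Fzd1 was at 0.0955, 0.0015 and 0.27 in MF1 pools 1 to 3, and at 0.66, -0.55 and 0.54 in C57 pools 1 to 3. Here too C57 pool 2 stood on the other side from C57 pools 1 and 3. The mean was 0.17 ± 0.43 (SD, n = 6; limma, adjusted p = 0.805). Without C57 pool 2 it was 0.36, with an unadjusted p of 0.0238 and an adjusted p of 0.486. Fzd2, which overlaps with Fzd7 in mouse development, was at 0.52, 0.31 and -0.41 in MF1 and at -0.10, 0.62 and 0.0165 in C57. Its MF1 pools spanned nearly the whole range of its values, and the mean was 0.16 ± 0.39 (SD, n = 6; limma, adjusted p = 0.806). That mean was 0.048 without C57 pool 2, 0.064 without MF1 pool 1 and 0.29 without MF1 pool 3.

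Fzd5 and Fzd8 form a second subgroup, known for roles in the developing eye and forebrain. Fzd8 was at 0.0925, 0.13 and 0.19 in the MF1 pools, the tightest set of any receptor gene in that strain, with a mean of 0.14 ± 0.048 (SD, n = 3). In C57 it was at -0.028, 0.56 and -0.29, with pool 2 the highest of the 6. Over both strains the mean was 0.11 ± 0.28 (SD, n = 6; limma, adjusted p = 0.834), and without C57 pool 2 it was -0.012. Fzd5 had no complete pool in C57, so it was measured in MF1 alone, at -0.049, 0.25 and -0.047, with a mean of 0.053 ± 0.17 (SD, n = 3). In a fit of the MF1 pools by themselves, added after the data were seen, its interval ran from -0.38 to 0.49 (limma, adjusted p = 0.9996).

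Fzd9 belongs to a subgroup with Fzd10 and is known for its expression in the developing hippocampal region of the mouse, at the medial edge of the cortex. Its ratios were 0.049, -0.33 and -0.018 in MF1 and -0.31, -0.93 and -0.15 in C57. It was below 0 in 5 of 6 pools, more than any other of the 7 tested receptor genes, and in 3 of 3 pools of C57. The mean was -0.28 ± 0.35 (SD, n = 6), a 1.22-fold difference, and it had the smallest unadjusted p of the 7 genes at 0.0876 (limma, adjusted p = 0.598). Without C57 pool 2, where it was lowest, the mean was -0.16.

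Fzd3 acts mainly in planar cell polarity, and in the mouse it is needed for the growth of forebrain axon tracts. It was at 0.086, -0.25 and 0.28 in MF1 and at -0.0033, -0.26 and -0.31 in C57. The MF1 pools lay on both sides of 0 and the C57 pools below it, with overlapping ranges. The mean was -0.076 ± 0.23 (SD, n = 6; limma, adjusted p = 0.87), and it was -0.0045 without MF1 pool 2 and -0.135 without MF1 pool 3.

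Lrp6 is the co-receptor whose loss in the mouse disturbs the development of several organs, the cortex among them. Its ratios were -0.34, -0.0985 and -0.041 in MF1 and 0.078, -0.12 and 0.41 in C57. The MF1 pools were all below 0, while C57 pool 2 lay inside the MF1 range and the other two C57 pools lay above it. The mean over both strains was the closest to 0 of the 7 genes, at -0.018 ± 0.25 (SD, n = 6; limma, adjusted p = 0.971), and 93.7% of all features had a mean ratio of larger size. Lrp5, the related co-receptor best known for its part in bone formation, was at -0.0705, 0.084 and -0.21 in MF1 and at -0.33 in C57 pool 3, the only complete C57 pool. It could be fitted over both strains only when 1 complete pool per strain was enough, at -0.20 with an interval from -0.66 to 0.27 (limma, adjusted p = 0.716).

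Ordered from the most rostral to the most caudal mean, the genes were Fzd1, Fzd2, Fzd8, Lrp6, Fzd3, Fzd9 and Fzd7. Neighbours in that order, which are by construction the closest means, did not differ beyond the spread of their difference over pools, with exact two-sided sign-flip p-values of 0.156 or more. Over all 21 pairs the smallest adjusted p was 0.492, which says little, since with 6 pools at least 14 pairs would have to reach the smallest possible p for any at that p to pass. The pair of Fzd1 and Fzd9 had the same order in 6 of 6 pools, with a difference of 0.45 ± 0.33 (SD, n = 6) and an exact p of 0.0313, the smallest that 6 pools can give.

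The strains were compared next, since they were chosen to separate strain-dependent patterns from general ones. For the MF1 pools against 0, with the spread taken over both strains, 0 of 7 receptor genes passed, where 0% of features did, and 0 of 7 had an unadjusted p under 0.05, against 4.36% of features. For the C57 pools in that fit 0 of 7 passed, against 0%, and 0 of 7 had an unadjusted p under 0.05, against 9.71%. Fzd9 came nearest, at -0.46 in C57 with an unadjusted p of 0.0545 (limma, adjusted p = 0.526), and at -0.0998 in MF1. When the C57 pools were fitted by themselves, its unadjusted p was 0.105 and its adjusted p 0.702. For the difference of MF1 minus C57, 0 of 7 passed (0% of features), and 0 of 7 had an unadjusted p under 0.05, against 6.1% of features.

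The largest strain differences were 0.36 for Fzd9, with an interval from -0.31 to 1.03, and -0.28 for Lrp6, with an interval from -0.85 to 0.28 (limma, adjusted p of 0.949 and 0.954). For Fzd7 the interval of the difference was so wide, from -1.23 to 1.54, that a difference of more than 2-fold between the strains in either direction lay within it. The spread between pools was compared as well. The SD over the 3 pools had a median of 0.20 in MF1 and 0.41 in C57 for the 7 receptor genes, and of 0.31 in MF1 and 0.33 in C57 for all features. Fzd8 had an SD of 0.048 in MF1 and 0.44 in C57, and Fzd1 of 0.13 in MF1 and 0.67 in C57. Fzd2 and Fzd3 were the 2 of 7 with the larger SD in MF1, with SDs of 0.48 and 0.26 in MF1 and of 0.39 and 0.16 in C57.

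The dye-exchanged arrays showed how much lay below each pool mean. If RNA and dye acted alike, both arrays of a pool would give the same turned ratio. In MF1 the gap between them had a median of 0.40 over all probes, and the median gaps of the 9 receptor genes ran from 0.070 for Fzd9 to 0.47 for Fzd2. In C57 the median gap over all probes was 0.71, and those of the 8 receptor genes with a complete pool ran from 0.20 for Fzd2 to 2.38 for Fzd7. Fzd2, Lrp5, Lrp6 and Fzd8 lay below the gap of all probes, and Fzd3, Fzd9 and Fzd1, at 0.91, 1.08 and 1.51, above it. In C57 pool 1, Fzd1 was at 2.81 with rostral RNA in Cy3 and at -1.50 with rostral RNA in Cy5, and their mean is the 0.66 given above. Fzd7 in C57 pool 2 was at 1.85 with rostral RNA in Cy3 and -0.54 with it in Cy5, while in C57 pool 3 it was at -1.94 and 1.02. Both genes thus had 2 of 3 C57 pools whose arrays lay on opposite sides of 0. This was not particular to them: Fzd8, Fzd9 and Lrp6 had as many such C57 pools. For Fzd3 the arrays lay on opposite sides in every C57 pool, and for Fzd2 in C57 pool 1 alone.

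For several genes the gap ran the same way in all 3 C57 pools, as an offset between dyes. With the ratio read as Cy5 over Cy3, which was inferred, Fzd1 had a mean offset of 0.13 in MF1 and -1.15 in C57, where the 3 pools were at -2.15, -0.75 and -0.54. Fzd9 and Fzd3 had offsets of 0.077 and -0.034 in MF1, and of 0.57 and 0.55 in C57. An offset of equal size on both arrays cancels in the pool mean but stays in a single orientation, where Fzd9 was at -0.60 over both strains with rostral RNA in Cy3 and at 0.040 with it in Cy5. Fzd5 had values on 2 of 6 C57 arrays, both with rostral RNA in Cy3, at -4.08 and -3.77. Those values passed as a C57 difference in the fit of that orientation (limma, adjusted p = 0.0338), but with no value in the opposite orientation a dye offset and a gradient of Fzd5 cannot be told apart.

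**Figure D3:**
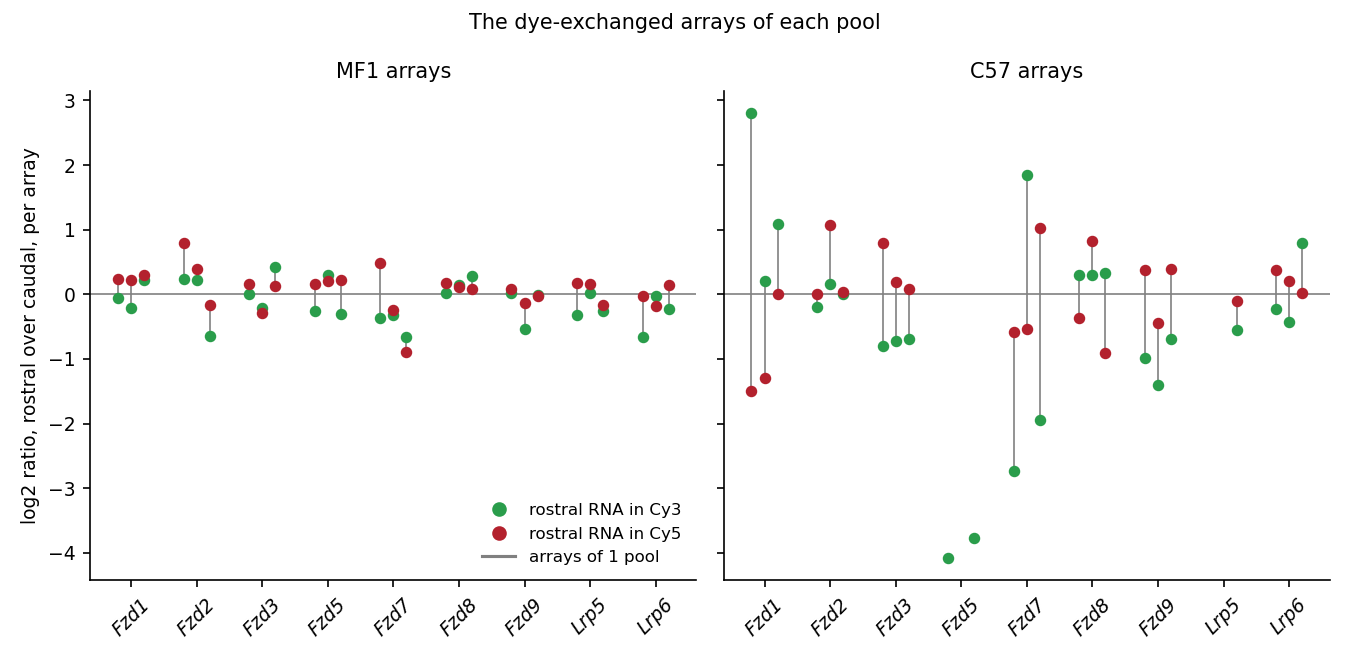
Log2 ratio of rostral over caudal RNA on each array (vertical axis) for the 9 receptor genes, MF1 arrays left and C57 arrays right, with the dye of the rostral RNA in colour and a line joining the arrays of 1 pool. In C57 the lines of Fzd1 reach from -1.50 to 2.81 and Fzd5 has points in a single orientation, while Fzd2 has a median gap of 0.47 in MF1 and 0.20 in C57.

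Around the receptors, other genes of the Wnt pathway were read from lists arranged by role. Of 133 such genes, 112 had a probe and 86 were tested. None passed adjustment, and 6 (6.98%) had an unadjusted p under 0.05, 4 higher and 2 lower rostrally, against 8.98% of all features. The list median was -0.026, with 39 genes above 0 and 47 below.

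Among the ligands and the proteins that secrete them, 13 were tested and 0 had an unadjusted p under 0.05, with a median of -0.021. The hem ligand Wnt3a was at -0.24 ± 0.29 (SD, n = 6; limma, adjusted p = 0.597), below 0 in 5 of 6 pools, and Wnt9b at -0.31 ± 0.30 (SD, n = 5). Of 12 other receptors and regulators of receptors, 1 had an unadjusted p under 0.05 and the median was -0.12. Rspo3, a secreted protein that keeps Frizzled and Lrp receptors on the cell surface, was at -0.40 ± 0.49 (SD, n = 6; limma, unadjusted p = 0.0417, adjusted p = 0.538). It was below 0 in 5 of 6 pools, with -0.0980 in MF1 and -0.71 in C57. Other cortical hem genes, named after their values were seen, lay above 0, with fitted means of 0.25 for Wnt8b and 0.55 for Rspo2. Of the 8 tested hem genes 4 lay above 0 and 4 below. Apcdd1, a membrane protein that inhibits Wnt signalling, was at -0.38 ± 0.38 (SD, n = 6; adjusted p = 0.555).

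The remaining Frizzled genes on the array, Fzd4 and Fzd6, are named after their values were seen. Fzd4, which also binds Norrin and is known for its role in blood vessels, was at -0.33, -0.23 and 0.25 in MF1 and at -1.87 and -0.19 in C57 pools 1 and 3 (limma, adjusted p = 0.597). Without C57 pool 1 its fitted mean was -0.15. In C57 pool 1, where Fzd4 and Fzd7 were both at their lowest, the 10 tested blood vessel markers had a median of -0.14, the 6 choroid plexus markers of -0.12 and the 10 markers of meninges and mesenchyme of -0.36. Ventral and dorsal telencephalon genes had medians of -0.33 and -0.21 in that pool, radial glia genes -0.026 and neuron genes 0.13. The part of any of these cells in the Fzd4 and Fzd7 values was not tested. Fzd6, the closest relative of Fzd3, was at -0.075 ± 0.22 (SD, n = 6; adjusted p = 0.873).

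The secreted antagonists held the highest mean among the tested pathway genes. Sfrp1, which carries a Frizzled-like domain and binds Wnts outside the cell, was at 1.09, 1.12 and 1.10 in MF1 and at 0.85, 1.30 and 0.80 in C57. Its mean of 1.04 ± 0.19 (SD, n = 6) lay above every pool value of every receptor gene, and its lowest pool above their highest, but it did not pass over all features (limma, adjusted p = 0.147). It did pass among features complete on 12 arrays (adjusted p = 0.0402) and in a fit of the 12 arrays with the pool as a block (adjusted p = 0.00244). That last fit counts the arrays of a pool as partly separate, with a correlation of 0.24 between them. In the other 14 alternatives fitted for Sfrp1 it did not pass. Its adjusted p (limma) was 0.522 without MF1 pool 1 and 0.728, the highest, with the pool number as a replicate block. Dkk3, a member of the Dickkopf family, was at -0.32 ± 0.22 (SD, n = 6; limma, unadjusted p = 0.0246, adjusted p = 0.507). The median of the 10 tested antagonists was -0.061.

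Inside the cell, 20 cytoplasmic transducers had a median of 0.090 and 1 had an unadjusted p under 0.05. That was Amer1, which binds beta-catenin destruction components at the membrane, at 0.55 ± 0.30 (SD, n = 6; limma, adjusted p = 0.409) and above 0 in 6 of 6 pools. Csnk1g1, a kinase of the family that phosphorylates Lrp6, was at -1.13 ± 1.38 (SD, n = 6; adjusted p = 0.568), with -3.76 in MF1 pool 1 and a mean of -0.50 without that pool. Of 13 nuclear transducers 2 had an unadjusted p under 0.05, with a median of 0.10. Cby1, an antagonist of beta-catenin, was at 0.49 ± 0.28 (SD, n = 6; adjusted p = 0.469), above 0 in 6 of 6 pools, and the co-repressor Tle4 at 0.31 ± 0.20 (SD, n = 6; adjusted p = 0.524). The probes of Tle4 averaged 0.46 and 0.11, and those of Sfrp1 1.13 and 0.96.

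Of 10 Wnt target genes 0 had an unadjusted p under 0.05, with a median of -0.12. Axin2, a general target of canonical signalling, was at -0.19 ± 0.19 (SD, n = 6; limma, adjusted p = 0.661), and the receptor Tnfrsf19 at -0.39 ± 0.68 (SD, n = 6; adjusted p = 0.678). The 8 tested genes of planar polarity had a median of -0.12 and 0 with an unadjusted p under 0.05. Of these the cadherins Celsr2 and Celsr3, which work with Fzd3 in axon tracts, were at -0.18 ± 0.33 and -0.35 ± 0.90 (SD, n = 6 each; adjusted p of 0.68 and 0.717). Without C57 pool 2 the mean of Celsr3 was -0.054.

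**Figure D4:**
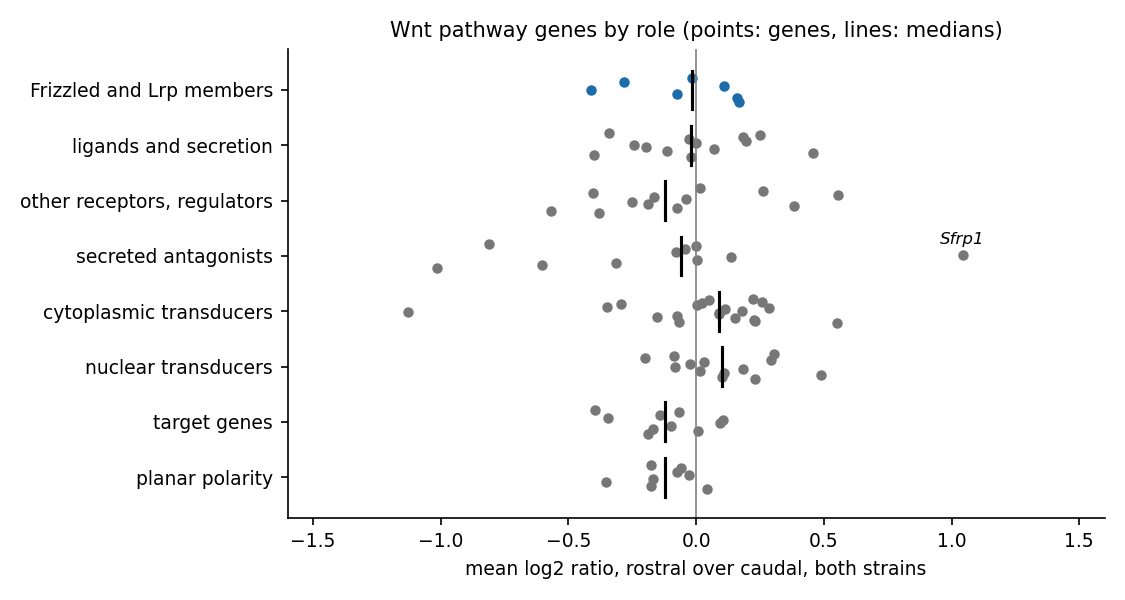
Mean log2 ratio of rostral over caudal RNA over both strains (horizontal axis) for the tested receptor genes (top row) and for other tested Wnt pathway genes grouped by role; each point is a gene and each vertical line a median. The receptor genes lie between -0.41 and 0.17, and Sfrp1 at 1.04 is the highest point.

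Markers of neighbouring tissue and of other cells that a dissection can carry gave the following medians over both strains. They were -0.31 for 6 of 8 choroid plexus genes, with pool medians from -0.22 to -0.09 in MF1 and from -0.91 to -0.12 in C57. They were -0.080 for 8 of 11 cortical hem genes, -0.0991 for 10 of 13 genes of meninges and mesenchyme, -0.045 for 10 of 11 blood vessel genes, 0.0050 for 5 of 7 microglia genes, -0.12 for 4 of 9 red blood cell genes and -0.023 for 11 of 12 ventral telencephalon genes. The red blood cell medians varied in sign between pools, at -0.525, -0.378 and 0.608 in MF1 pools 1 to 3. In C57 pools 1 to 3 they were 0.0005, -0.339 and 0.080. Genes of the cortex itself had medians of 0.12 for the dorsal telencephalon (7 of 8), 0.14 for radial glia (9 of 9) and 0.13 for neurons (8 of 9). Of these 10 lists 0 genes passed adjustment, where 0% of all features did. At an unadjusted p under 0.05 (limma), 2 of 6 choroid plexus and 2 of 8 cortical hem genes were lower rostrally. So were 3 of 10 genes of meninges and mesenchyme and 1 of 10 blood vessel genes. Higher were 2 of 9 radial glia, 1 of 8 neuron, 1 of 5 microglia and 1 of 4 red blood cell genes. The dorsal and ventral lists each had 1 gene higher and 1 lower. Among all features the share was 8.98%. In C57 pools 1 to 3 the choroid plexus medians were -0.12, -0.53 and -0.91, beside Fzd9 at -0.31, -0.93 and -0.15, and the part of such tissue in the receptor values was not tested.

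Finally, the genes whose 6 pool ratios were nearest to those of a receptor gene were taken by the root mean square difference, over 8878 other named genes with 6 pools. For Fzd9 these were Chmp4b, Rps6kb2 and 0610031G08Rik, at differences of 0.072, 0.11 and 0.11, where the median gene was at 0.55. For Lrp6 they were Agpat1, Golgb1 and Abat, at 0.079, 0.086 and 0.0977 against a median of 0.42. For Fzd7 the nearest were an immunoglobulin kappa variable segment, Ccl3 and Hacd4, at 0.27, 0.37 and 0.38 against a median of 0.94. The nearest of 8878 genes over 6 values lie below the median by selection, so these distances are no evidence of a shared pattern.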

How the data were processed

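The deposited values are log2 ratios between the dyes of an array. The sources used here do not state how the authors scanned, corrected or normalized the arrays, nor which dye was the numerator. Signal over background is unknown, and the number of arrays limits the precision. The cDNA was amplified with the SMART system, per the design text, and its effect on the ratios was not tested. The 701 values at or above a ceiling of 16.61 were treated as missing. The array medians ran from -0.41 to 0.475, and each array was centred on its median. There were 0 columns of other samples.

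Between the arrays of a pool, deviations from the mean of the same strain and dye orientation correlated at -0.35 to -0.15 (Spearman) in 5 pools and at 0.0009 in C57 pool 3, so the values were read as running by dye. Cy5 over Cy3 was taken as the ratio and turned to rostral over caudal by the dye labels. The basis was that 5 genes known to be caudal then had a median of -0.38 and 9 genes known to be rostral a median of 0.19. Of these, 1 of the 5 caudal genes lay above 0 and 3 of the 9 rostral genes below it, and the caudal median was -0.12 in MF1 and -0.58 in C57, so the basis is thin. Those lists are therefore no independent evidence of direction.

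Probes were named from the platform annotation: 16864 of 21998 had 1 symbol, 139 several and 4995 no entry. The 2 orientations of a pool were averaged, both being required, and then the probes of a gene. Features needed 2 complete pools in each strain. limma 3.58.1 in R 4.3.3 fitted a mean for each strain with 1 spread for all pools, and p-values were adjusted by Benjamini-Hochberg over all features at a threshold of 0.05; the code was tested on simulated data. Pairs of receptor genes were compared by exact sign-flip tests over pools.

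Named are every receptor gene, and from each pathway list the genes with an unadjusted p under 0.05, or the 2 of smallest p where fewer than 2 had one. Fzd4, Fzd6, Wnt8b and Rspo2 were named after their values were seen. Likeness was taken for the 2 receptor genes of smallest p over both strains and the 2 of smallest p for the strain difference, which gave 3 genes. Members and lists were chosen with earlier results of these data known. Alternatives covered centring, scaling, weights, ceiling values, completeness, averaging of probes, dye orientation, each pool left out, and blocks. Pool numbers recur in both strains but come from different embryos, and same-numbered pools correlated at -0.14, 0.058 and -0.0039, so they were not treated as pairs.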

Additional observations from a re-analysis of the deposited data

Results flagged for a closer look

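Of 21 genes examined, 3 had a pool far from the others by Dixon's test at its 95% level, where chance alone gives about 1 in 20. The 21 were tested receptor genes and most of the pathway genes named above. Fzd4, at -1.87 in C57 pool 1, was not among the genes examined. Csnk1g1 was at -3.76 in MF1 pool 1, Celsr3 at -2.06 in C57 pool 2 and Tle4 at -0.072 in MF1 pool 3. None of the 7 receptor genes was among them. No receptor gene had all MF1 pools on one side of 0 and all C57 pools on the other.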

How the results depend on the processing

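Over the 17 alternatives and both single-strain fits, 0 receptor genes passed adjustment except Fzd5 in C57 with rostral RNA in Cy3 alone, where a dye offset remains by construction. The number of features past adjustment over both strains was 21 when all 12 arrays were fitted with pools as random blocks and 6 for features complete on 12 arrays, Sfrp1 among both; in C57 it was 9 on the 12 arrays, and 188 and 118 with rostral RNA in Cy3 or Cy5 only. Receptor genes with an unadjusted p under 0.05 over both strains were 1 of 7 with arrays not centred (Fzd9, -0.47; 15% of all features), 1 of 7 on the 12 arrays (Fzd9, -0.28; 8.64%), 2 of 8 in Cy3 only (Fzd5 and Fzd9; 14.8%) and 0 to 2 of 7 when a pool was left out, the 2 without C57 pool 2 (8.86%). In C57 they were 1 with arrays not centred (11.5%), 1 on the 12 arrays (9.74%) and 1 for complete features (9.58%). In the single orientations they were 4 of 8 in Cy3 only (20.5%) and 1 in Cy5 only (20.2%). They were 2 of 7 without C57 pool 2 (Fzd1 and Fzd7; 9.03%) and 1 of 7 without C57 pool 3 (Fzd9; 10%). With any other pool left out they were 0 of 7 (7.66% to 12.3%). For the strain difference they were 3 of 8 in Cy3 only (13.6%) and 1 in Cy5 only (12.2%).

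Leaving out the centring moved the median over features to -0.18, and Fzd1 was then at -0.020, Fzd2 at -0.031 and Fzd8 at -0.080, all still above that median. Signs also changed for MF1 minus C57 of Fzd2, to 0.046 with arrays scaled and 0.12 with array weights. In Cy3 only, Fzd2 was at -0.037, Tle4 at -0.0515, Axin2 at 0.20 and Fzd6 at 0.49, and the strain difference of Fzd8 at -0.17. In Cy5 only, Fzd1 was at -0.34, Fzd3 at 0.18, Fzd8 at -0.013, Fzd9 at 0.040, Lrp6 at 0.0905, Fzd4 at 0.28, Rspo3 at 0.0065, Celsr2 at 0.0977 and Celsr3 at 0.11, and the strain differences of Fzd1, Fzd3, Fzd7 and Fzd9 were at 1.19, -0.35, -0.18 and -0.13. Without 1 pool in turn, the ranges that crossed 0 were -0.012 to 0.20 for Fzd8 and -0.089 to 0.042 for Lrp6, and for the strain differences -0.48 to 0.12 for Fzd1, -0.23 to 0.23 for Fzd2, -0.43 to 0.73 for Fzd7 and -0.13 to 0.30 for Fzd8. Dye offsets remain in the single orientations by construction; for the other changes the cause was not tested. With the pool number as a replicate block, Fzd9 was at -0.28 and Fzd7 at -0.41, 0 features passed over both strains, and 976 had an unadjusted p under 0.05 in place of 1295.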
